A study of Rattus norvegicus with 6 samples.

Results

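The potassium channel family was followed in whole rat hearts as the genes whose symbol on the array begins with Kcn. The symbol table held 88 rows for 86 such genes, out of 15037 named genes, and for the gene with more than 1 row, Kcnip2, the row with the highest mean was used. The arrays came from 3 groups of 2. TAC-R hearts had been released from a transverse aortic constriction (TAC), TAC hearts were still under it, and normal hearts were labelled healthy. In the surgery a silk thread was tied around the transverse aorta of male Sprague-Dawley rats aged 10 weeks, which narrows the vessel and loads the left ventricle. According to the protocol, control rats had the operation with no ligature tied, and it is not stated if these are the normal hearts. The time under constriction and after release is also not stated, nor whether a group's arrays are separate rats. The p-values therefore cover array-to-array spread only, possibly of a technical kind. The labels name no transgene or other agent in any group. The extraction field names cultured fibroblasts, whereas Myl2, the ventricular myosin light chain, had signals of 18.80 to 19.12 log2 units on the 6 arrays.

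Potassium channels let potassium leave heart muscle cells and so end each action potential and hold the resting potential. Voltage-gated channels carry the transient outward and delayed rectifier currents. Inward rectifiers set the resting potential or answer to acetylcholine and to ATP, and 2-pore channels carry background current. Auxiliary subunits change how these pores open and how many reach the membrane. In hypertrophied and failing hearts, reduced transient outward and inward rectifier currents are a textbook finding.

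The values are the deposited log2 signals, in which a difference of 1 unit is a 2-fold difference. Most of the family lay in the background of the arrays. The row means of the 1153 negative control rows had a 95th percentile of 8.18 log2 units, and 10 of the 86 genes (11.6%) had a row mean above it, against 26.8% of the 23188 tested rows. These 10 are called bright here. They were the inward rectifiers Kcnj3, Kcnj5, Kcnj2, Kcnj11 and Kcnj8, the voltage-gated subunits Kcnd2, Kcnq1 and Kcng2, the 2-pore channel Kcnk3 and the auxiliary subunit Kcnip2. The last bright gene was Kcnj8 with a row mean of 8.24, and the first one outside was Kcnk2 with 8.17. Of the 86 genes, 72 were below the 95th percentile of the controls of the same array on all 6 arrays, and 52 had a row mean below the median of the controls, 4.47. No level of a gene is set against that of another gene, because probes differ in brightness.

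No gene of the family passed the test in any comparison. The test was limma's moderated linear model over all 23188 rows with Benjamini-Hochberg adjustment, and a row was called at an adjusted p under 0.05. Between TAC and normal hearts 0 of 86 genes were called, against 0.254% of all tested rows. Between TAC-R and TAC hearts 0 of 86 were called, against 0.431%, and between TAC-R and normal hearts 0 of 86, against 0.0906%. At those background shares, 0 calls among 86 genes is near the background. On simulated arrays the same test called 5.97% of rows changed by 1 log2 unit, so it would miss most differences of that size. In bulk heart RNA, fewer cells of a type and less RNA per cell cannot be told apart.

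At an unadjusted p under 0.05, 8 genes (9.30%) differed between TAC and normal hearts, 2 of them higher and 6 lower in TAC, against 10.3% of all tested rows (5.43% higher and 4.89% lower). Between TAC-R and TAC hearts the count was 12 genes (14.0%), 7 higher and 5 lower in TAC-R, against 11% of all rows (4.79% and 6.2%). Between TAC-R and normal hearts it was 16 genes (18.6%), 6 higher and 10 lower in TAC-R, against 10.7% (5.36% and 5.32%). The first 2 shares were close to the background and the last was above it. Among the 10 bright genes the counts were 2 in TAC against normal, Kcnj3 and Kcnj5, both higher, and 3 in TAC-R against TAC, with Kcnip2 and Kcng2 higher and Kcnj2 lower. All 6207 rows above the percentile of the controls had shares of 9.73% (6.9% higher, 2.84% lower) and 13.6% (5.67% and 7.91%) in those comparisons. In TAC-R against normal 6 of the 10 had such a p, namely Kcnj3, Kcnj5, Kcnd2, Kcnip2 and Kcng2, with higher signals in TAC-R, and Kcnj2, with lower signals in TAC-R. There the share among the 6207 rows was 11% (7.09% higher, 3.93% lower). The TAC and TAC-R comparisons with normal hearts share the same 2 normal arrays, and all 3 comparisons share arrays in pairs, so a gene that recurs in them is not independent evidence.

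**Figure D1:**
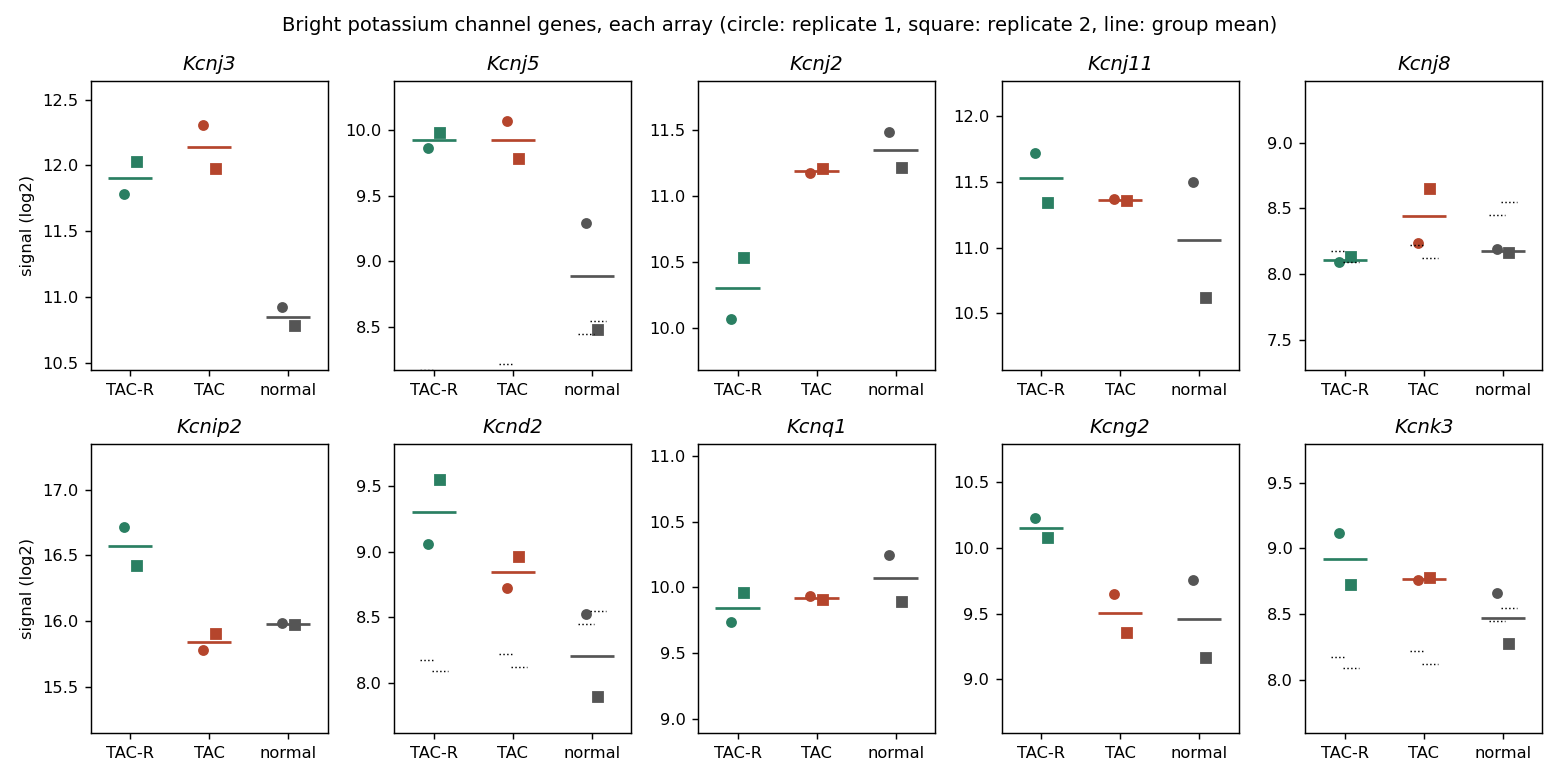
Signals of the 10 bright potassium channel genes on each array, in log2 units, for TAC-R, TAC and normal hearts. Circles are replicate 1, squares are replicate 2, solid lines are group means, dotted lines (where they fall in the panel) mark where 95% of an array's negative controls lie below, and every panel spans 2.2 log2 units. Both TAC-R and both TAC points lie above both normal points for Kcnj3 and Kcnj5, and both TAC-R points lie below the other 4 for Kcnj2.

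Kcnj3 had the largest difference of the family between TAC and normal hearts, followed by Kcnj5. They encode partner subunits of the acetylcholine-activated channel that slows the pacemaker and shortens the atrial action potential. Kcnj3 had signals of 11.79 and 12.02 log2 units on the TAC-R arrays, 12.31 and 11.98 on the TAC arrays, and 10.92 and 10.78 on the normal arrays. The TAC-R and TAC arrays overlapped each other and all 4 lay above both normal arrays. The difference between TAC and normal was 1.29 ± 0.23 log2 units (standard error of the model), a fold of 2.45 with a 95% interval of 0.78 to 1.81 log2 units, and it missed the threshold (adjusted p = 0.0902). Between TAC-R and normal it was 1.06 ± 0.23 (adjusted p = 0.194), and between TAC-R and TAC -0.24 ± 0.23 (adjusted p = 0.766). The call of Kcnj3 depended on how the spread was pooled and on which rows were tested. With rows below the control percentile left out of the limma test, its TAC difference from normal passed (adjusted p = 0.0275). When the model let the spread depend on signal strength (limma's intensity trend), its differences from normal passed both in TAC (adjusted p = 0.00359) and in TAC-R (adjusted p = 0.0198).

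Kcnj5 had 9.86 and 9.98 log2 units on the TAC-R arrays, 10.07 and 9.78 on the TAC arrays, and 9.29 and 8.48 on the normal arrays. The normal arrays lay below the other 4 with an SD of 0.58 (n = 2), and normal replicate 2 was below the percentile of the controls of its array. The difference was 1.04 ± 0.29 log2 units between TAC and normal (adjusted p = 0.301) and 1.03 ± 0.29 between TAC-R and normal (adjusted p = 0.304). Without normal replicate 2 the TAC difference was 0.63, and without normal replicate 1 it was 1.45. Between TAC-R and TAC the interval of the Kcnj5 difference ran from -0.67 to 0.66, which leaves room for a sizeable difference either way.

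Genes that act on this channel were followed from a list of receptor and G protein partners. Chrm2, the muscarinic receptor that opens it, had 14.94 and 15.26 log2 units in TAC-R, 15.25 and 15.01 in TAC, and 15.06 and 15.34 in normal hearts, so the 3 groups overlapped. Rgs4, which speeds the turning off of G protein signals, had 8.21 and 7.85 in TAC-R, 8.79 and 9.30 in TAC, and 8.40 and 8.45 in normal hearts. TAC-R replicate 2 and both normal arrays were below the percentile of their controls. Both TAC-R arrays lay below both TAC arrays (adjusted p = 0.174), and no size is given. Of the 6 genes on that list, 0 were called in any comparison, and at an unadjusted p under 0.05 the counts were 1 higher and 1 lower in TAC against normal, 2 higher and 2 lower in TAC-R against TAC, and 1 higher and 1 lower in TAC-R against normal, where 10.3%, 11% and 10.7% of all tested rows had such a p. The higher ones in TAC-R against TAC were Adora1, an adenosine receptor gene in the background on all 6 arrays, and Gnao1, a G protein alpha subunit gene (0.68), and the lower ones were Rgs4 and Rgs6 (-0.62).

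Kcnj2 encodes the main pore of the inward rectifier current that holds the resting potential of ventricular muscle. Its signals were 10.06 and 10.53 log2 units on the TAC-R arrays, 11.18 and 11.21 on the TAC arrays, and 11.49 and 11.22 on the normal arrays. Both TAC-R arrays lay below the other 4, while the TAC and normal arrays nearly touched. The difference was -1.06 ± 0.24 log2 units between TAC-R and normal, a fold of 2.08 (95% interval -1.60 to -0.51), and -0.89 ± 0.24 between TAC-R and TAC. Neither passed (adjusted p = 0.225 and 0.209), and TAC minus normal was -0.16 ± 0.24 (adjusted p = 0.856). With the intensity trend the difference from normal passed in TAC-R (adjusted p = 0.0354). Kcnj12, a related inward rectifier, was below the percentile of the controls on all 6 arrays. It had 6.76 and 6.72 in TAC-R, 6.86 and 6.60 in TAC, and 7.31 and 7.39 in normal hearts, and no size is given to those differences.

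The ATP-sensitive channel closes when ATP is plentiful and is built from Kcnj11 or Kcnj8 pores with Abcc8 or Abcc9 receptors. Kcnj11, the muscle pore, had 11.72 and 11.34 log2 units in TAC-R, 11.37 and 11.35 in TAC, and 11.50 and 10.62 in normal hearts. All groups overlapped, and the differences were 0.30 ± 0.31 for TAC minus normal, 0.17 ± 0.31 for TAC-R minus TAC and 0.47 ± 0.31 for TAC-R minus normal (adjusted p = 0.77, 0.891 and 0.616). Kcnj8, the pore of vascular muscle and pericytes, sat at the edge of the background, with 8.09 and 8.13 in TAC-R, 8.23 and 8.64 in TAC, and 8.19 and 8.16 in normal hearts. Both normal arrays and TAC-R replicate 1 were below the percentile of their controls, and TAC replicate 1 was barely above it. Abcc9, the receptor of muscle channels, had 13.24 and 13.25 in TAC-R, 13.66 and 13.27 in TAC, and 13.45 and 13.60 in normal hearts, and its differences were at most 0.28 in size. The intervals of these genes still allow differences of about the size seen for Kcnj2 in the case of Kcnj11, whose TAC-R minus normal interval reached 1.17.

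Kcnip2 encodes the calcium-binding partner that the transient outward current of rodent ventricle needs. Its signals were 16.72 and 16.42 log2 units on the TAC-R arrays, 15.78 and 15.90 on the TAC arrays, and 15.99 and 15.97 on the normal arrays. Both TAC-R arrays lay above the other 4, and the TAC arrays lay just below the normal ones. The difference between TAC-R and TAC was 0.73 ± 0.22 log2 units, a fold of 1.66 (95% interval 0.24 to 1.22, adjusted p = 0.251), and between TAC-R and normal 0.59 ± 0.22 (adjusted p = 0.398). For TAC minus normal it was -0.14 ± 0.22, with an interval of -0.63 to 0.35 (adjusted p = 0.862). With the intensity trend Kcnip2 passed between TAC-R and TAC (adjusted p = 0.00742) and between TAC-R and normal (adjusted p = 0.0437). The other rows of the gene had nearly the same signals, at row means of 16.12 and 15.86, so they are not separate evidence.

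Kcnd2 encodes a pore of that fast transient outward current. It had 9.06 and 9.55 log2 units in TAC-R, 8.73 and 8.96 in TAC, and 8.53 and 7.89 in normal hearts. None of the 3 groups overlapped, with TAC-R uppermost and normal lowest, although normal replicate 2 was in the background of its array. The difference between TAC-R and normal was 1.09 ± 0.28 (95% interval 0.45 to 1.74, adjusted p = 0.278), that between TAC and normal 0.63 ± 0.28 (adjusted p = 0.49) and that between TAC-R and TAC 0.46 ± 0.28 (adjusted p = 0.626). Kcnd3 and Kcna4, the other pores of transient outward current in rodents, are named for that role after their values had been seen, and both were in the background on all 6 arrays. Kcnd3 lay between 6.59 and 7.38. Kcna4 had 7.29 and 7.15 in TAC-R, 6.63 and 6.25 in TAC, and 6.70 and 7.12 in normal hearts.

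Transcription factors known from mouse heart to act on these genes were looked up beside them. Irx5, which represses Kcnd2 in mice, lay in the background at 6.55 and 6.08 log2 units in TAC-R, 6.40 and 6.45 in TAC, and 7.03 and 6.99 in normal hearts. Klf15, which drives Kcnip2 in mice, had 9.17 and 9.73 in TAC-R, 8.93 and 8.65 in TAC, and 8.37 and 8.95 in normal hearts. The TAC-R arrays were above all others for Klf15, whose normal replicate 1 was in the background, with a difference of 0.66 from TAC (adjusted p = 0.449) and 0.79 from normal (adjusted p = 0.396). Dpp6 and Dpp10, membrane partners of the same pores, were at 2.43 to 3.26 on the 6 arrays, in the background.

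Kcnq1, the pore of the slow delayed rectifier, had 9.74 and 9.95 log2 units in TAC-R, 9.93 and 9.90 in TAC, and 10.25 and 9.89 in normal hearts. The groups overlapped in every comparison, and no difference exceeded 0.22 in size. Kcng2, a silent voltage-gated subunit that works by joining other pores, had 10.23 and 10.08 in TAC-R, 9.65 and 9.35 in TAC, and 9.75 and 9.16 in normal hearts. Both TAC-R arrays lay above the other 4, with differences of 0.65 ± 0.26 from TAC and 0.69 ± 0.26 from normal (adjusted p = 0.406 and 0.404). Kcnk3, an acid-sensitive background channel, had 9.12 and 8.72 in TAC-R, 8.76 and 8.77 in TAC, and 8.66 and 8.28 in normal hearts. Normal replicate 2 was below the percentile of its controls. The differences were 0.45 ± 0.24 between TAC-R and normal and 0.30 ± 0.24 between TAC and normal (adjusted p = 0.544 and 0.705).

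**Figure D2:**
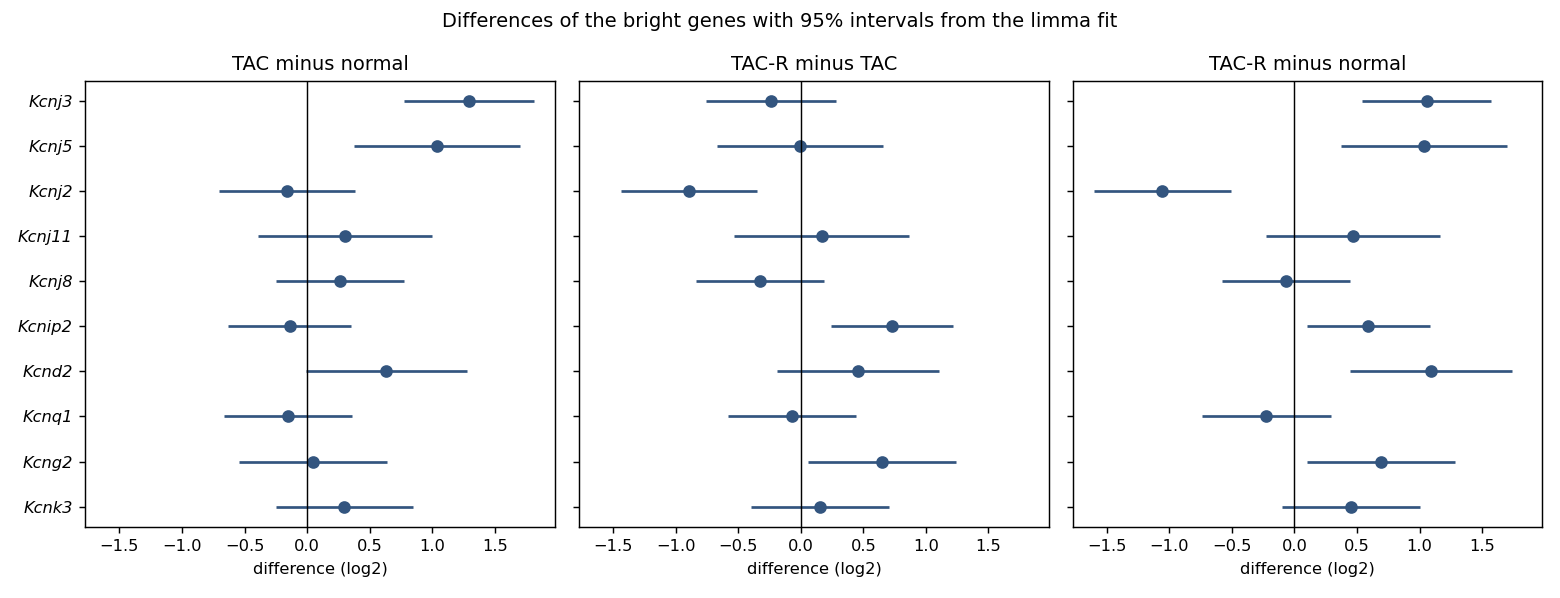
Differences of the 10 bright genes in log2 units for TAC minus normal, TAC-R minus TAC and TAC-R minus normal hearts. Points are the differences of the group means and lines are unadjusted 95% intervals from the limma model. For TAC minus normal the intervals of Kcnj3 (0.78 to 1.81) and Kcnj5 lie above 0, and for TAC-R minus normal that of Kcnj2 lies below it and those of Kcnj3, Kcnj5, Kcnip2, Kcnd2 and Kcng2 above it.

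Promoters are shown for Kcnj5, Kcnj2 and Kcnip2, so that their regulatory sequences can be seen side by side. Against normal hearts, TAC-R hearts had a lower signal for Kcnj2 and higher signals for Kcnj5 and Kcnip2, and none of these was called. The genes were chosen after the values were seen. RefSeq promoters (250 bases before to 50 after the gene start, build GRCr8) matched 61 of the 86 genes. Kcnj5 lies on the minus strand at chr8:39011047-39011346, Kcnj2 on the plus strand at chr10:96559975-96560274 and Kcnip2 on the minus strand at chr1:254613849-254614148. Capitals mark every match, on either strand, of 5 short motifs, whose matches do not overlap here. The letters GATAA are read by zinc finger factors of heart muscle, and CATTCC is read by TEAD factors. The GC box has the letters GGGCGG, the core promoter box has the letters TATAAA, and the E-box has the letters CACGTG.
Kcnj5: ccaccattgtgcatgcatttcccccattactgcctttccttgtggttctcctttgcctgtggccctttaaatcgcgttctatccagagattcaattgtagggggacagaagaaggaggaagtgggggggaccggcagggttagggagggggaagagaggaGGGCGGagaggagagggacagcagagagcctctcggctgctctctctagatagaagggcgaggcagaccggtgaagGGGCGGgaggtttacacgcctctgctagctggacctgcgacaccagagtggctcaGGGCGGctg
Kcnj2: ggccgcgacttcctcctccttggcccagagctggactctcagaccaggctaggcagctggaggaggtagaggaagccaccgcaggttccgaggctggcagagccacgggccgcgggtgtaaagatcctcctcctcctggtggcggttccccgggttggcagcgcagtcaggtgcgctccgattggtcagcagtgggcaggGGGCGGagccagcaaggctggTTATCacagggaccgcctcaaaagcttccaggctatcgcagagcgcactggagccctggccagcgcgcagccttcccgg
Kcnip2: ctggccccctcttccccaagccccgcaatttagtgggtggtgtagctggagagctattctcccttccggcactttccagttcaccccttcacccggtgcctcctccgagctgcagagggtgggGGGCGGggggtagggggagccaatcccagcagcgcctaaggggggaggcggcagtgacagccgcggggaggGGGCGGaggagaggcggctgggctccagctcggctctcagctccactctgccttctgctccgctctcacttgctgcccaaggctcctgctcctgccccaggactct
Kcnj5 held 3 GC boxes, Kcnip2 held 2 and Kcnj2 held 1, a motif found in 33.1% of the 33469 promoters of this length. Kcnj2 also held 1 match of the zinc finger motif, found in 26.5% of all promoters. The TEAD motif, the core promoter box and the E-box are in 14.2%, 14.2% and 6.42% of all promoters and have no match in these 3 windows. The GC content was 59% for Kcnj5, 67% for Kcnj2 and 67.7% for Kcnip2, against a median of 51.7%. These matches describe letters and are not binding sites.

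Among the 76 dimmer genes, the largest differences between TAC-R and TAC were those of Kcnip3, Kcnk2 and Kcnma1. Kcnip3, a calcium-binding protein related to Kcnip2 that also acts as a transcriptional repressor, had 6.89 and 6.78 log2 units in TAC-R, 7.92 and 7.80 in TAC, and 7.44 and 7.37 in normal hearts. All 6 values were below the percentile of the controls, so no size is given to its differences. Both TAC-R arrays lay below both TAC arrays (adjusted p = 0.102). That comparison passed when rows below the median of row means were left out of the test (adjusted p = 0.035) and with a robust intensity trend (adjusted p = 0.0387). Kcnk2, a stretch-activated background channel, had 7.81 and 7.69 in TAC-R, 8.42 and 8.85 in TAC, and 8.21 and 8.04 in normal hearts. Only the TAC arrays were above the percentile of their controls. On these arrays the TAC-R mean was at least 1.42-fold below the TAC mean. This bound sets the mean of the TAC arrays against the control percentile of the TAC-R arrays. It takes no account of the spread between arrays, and the limma fit gave adjusted p = 0.198. No bound is given against normal hearts, since TAC replicate 1 lay below the percentiles of both normal arrays (adjusted p = 0.493).

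Kcnma1, the pore of the large calcium-activated channel, had 5.02 and 4.43 log2 units in TAC-R, 4.22 and 3.60 in TAC, and 3.83 and 4.39 in normal hearts, close to the median of the controls. Kcnk4, a mechanosensitive 2-pore channel, had 4.64 and 4.52 in TAC-R, 3.99 and 3.99 in TAC, and 4.73 and 4.83 in normal hearts. Kcne3, an auxiliary subunit that keeps Kcnq1 open, had 3.54 and 4.27 in TAC-R, 4.05 and 3.82 in TAC, and 4.50 and 4.93 in normal hearts. These 3 genes differed in the background, so the sizes are not measured. Kcnab1, a beta subunit of voltage-gated pores, had 5.47 and 5.47 in TAC-R, 5.49 and 5.01 in TAC, and 4.54 and 4.89 in normal hearts, and Kcns3, a silent voltage-gated subunit, had 4.58 and 3.93, 4.73 and 4.71, and 4.89 and 4.98 in the same groups. None of the 76 dimmer genes was called.

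**Figure D3:**
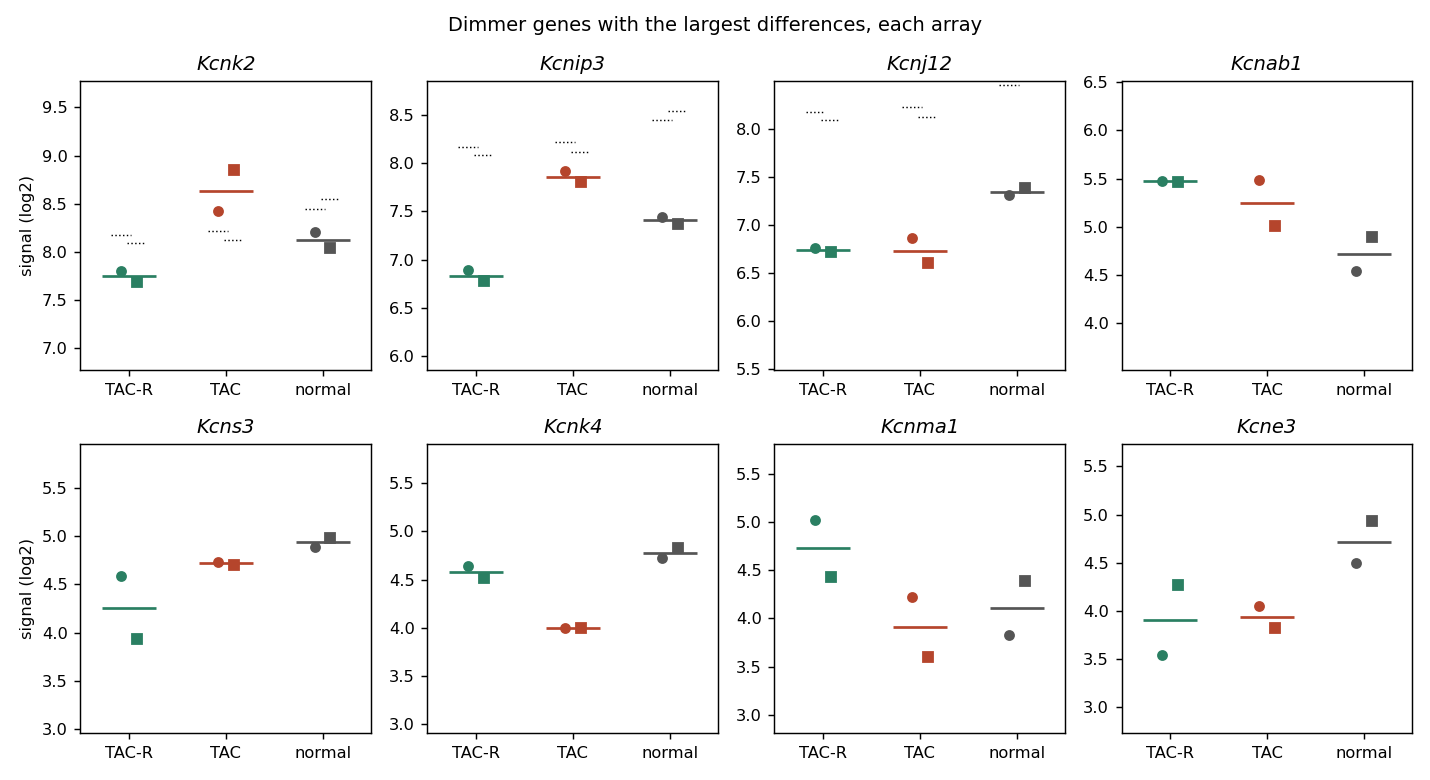
Signals of the 8 dimmer genes with the largest differences, on each array, in log2 units, with symbols and lines as for the bright genes. Each panel spans 3 log2 units. Kcnk2 crosses the dotted percentile of the controls on the TAC arrays only, and the other genes lie below it on all 6 arrays.

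By channel class, 0 genes were called in any class. The 15 inward rectifiers held 5 of the 10 bright genes, the 36 voltage-gated subunits 3, the 13 2-pore channels 1 and the 16 auxiliary subunits 1. The 6 calcium- or sodium-activated channels held 0, and all 6 were in the background on every array. Class medians of the differences ran from -0.12 to 0.08 log2 units between TAC and normal, from -0.11 to 0.05 between TAC-R and TAC and from -0.18 to 0.11 between TAC-R and normal.

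The median difference of the 10 bright genes was 0.28 log2 units between TAC and normal, 0.076 between TAC-R and TAC and 0.53 between TAC-R and normal. Over all 6207 rows above the percentile of the controls the same medians were 0.077, 0.0089 and 0.086. Without normal replicate 2, which had the lower signal of the normal pair for all 10 bright genes, the first median became -0.02 and the third 0.33. The groups did not overlap for 7 of the 10 bright genes between TAC and normal (49.8% of all rows above the percentile), for 5 between TAC-R and TAC (48.4%) and for 8 between TAC-R and normal (46.2%). Over the whole family those counts were 39, 32 and 43 of 86, against 43.3%, 40.5% and 40.9% of all tested rows. Kcnj8 is included each time among the bright genes. Its row mean lay just above the threshold with its highest signals on the TAC arrays, so its place among them is partly due to those arrays. Its lack of overlap is therefore not separate evidence.

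**Figure D4:**
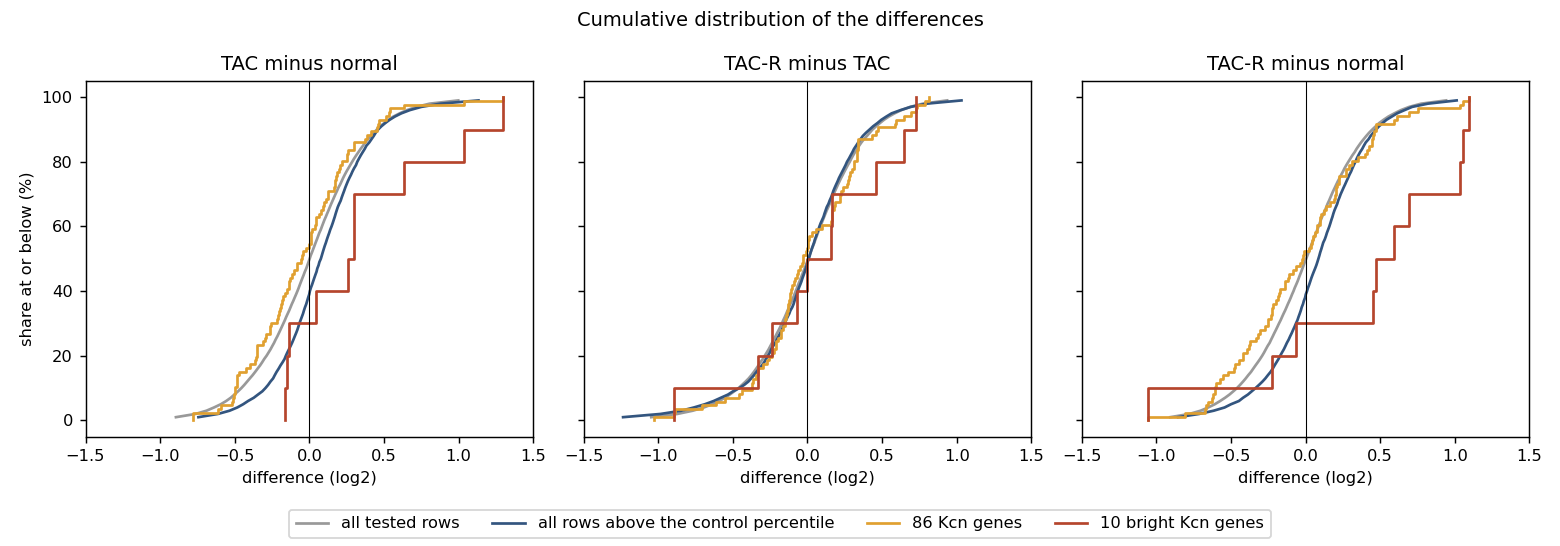
Cumulative share of rows or genes (in percent) at or below each difference in log2 units, for all tested rows, all rows above the control percentile, the 86 Kcn genes and the 10 bright ones. The median of the 86 genes is at -0.05, -0.03 and -0.02, and the median of the 10 bright genes is at 0.28, 0.076 and 0.53 in the 3 comparisons.

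Some markers of particular heart cells differed between the groups by the test, and several marker lists had no call. Of 5 atrial markers, 1 was called, Myl7, higher in TAC-R than in TAC and in normal hearts. The summed signal of the list was 15.05 and 13.05 log2 units in TAC-R, 9.24 and 9.45 in TAC, and 10.43 and 10.72 in normal hearts. Myl7 was above the percentile of the controls on the TAC-R arrays only, and Myl4 on TAC-R replicate 1 only. Sln and Bmp10 were in the background on all 6 arrays, and no marker was at 0. Kcnj3 and Kcnj5, known as genes of atrial muscle, had higher signals in TAC than in normal hearts. The summed atrial signal was lower in TAC, but in those groups only Nppa was above the percentile of the controls. The sum therefore says little about atrial tissue there. Between TAC-R replicates 1 and 2, which differed most in that sum, the signals were 11.79 and 12.02 for Kcnj3 and 9.86 and 9.98 for Kcnj5. TAC-R replicate 1 was the higher array of its pair for Kcnip2, Kcng2, Kcnk3 and Kcnj11 and the lower one for the other 6 bright genes. Without it the Kcnip2 difference from TAC was 0.58. The part of atrial tissue in the TAC and TAC-R differences was not tested.

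The summed fibroblast, pericyte, smooth muscle and endothelial signals were lower on both TAC-R arrays than on both TAC arrays. The summed fibroblast list was 16.81 and 16.44 log2 units in TAC-R, 17.38 and 17.47 in TAC, and 17.30 and 16.96 in normal hearts, with 1 of 5 genes, Col3a1, lower in TAC-R than in TAC by the test. The pericyte list was 14.97 and 14.92 in TAC-R, 15.71 and 15.44 in TAC, and 15.39 and 15.39 in normal hearts, with 0 of 4 called. Kcnj8 and Kcnk2 had their highest signals on the TAC arrays, as the sums of these 2 lists and of the smooth muscle, macrophage and red cell lists did. A sum mostly follows the brightest gene of its list, such as Rgs5 for pericytes (row mean 15.27) and Dcn for fibroblasts (16.86). Not every gene followed its sum. Notch3 of the pericyte list was highest in normal hearts, and Adgre1 and Cd163 of the macrophage list had their highest means in TAC-R, all in the background. The smooth muscle list was 11.28 and 10.66 in TAC-R, 11.96 and 11.87 in TAC, and 11.39 and 11.31 in normal hearts. Cnn1 was called higher in TAC than in normal hearts, but it was in the background on all 6 arrays, so no size is given. The endothelial list was 15.31 and 14.48 in TAC-R, 15.73 and 15.64 in TAC, and 15.85 and 15.85 in normal hearts, with 0 of 5 called. That sum mostly follows Cdh5 (row mean 15.28). Cdh5 and Kdr were lower in TAC than in normal hearts, whereas Pecam1, Tie1 and Vwf were higher. Tie1 was in the background on all 6 arrays, and Vwf was above it on the TAC arrays only. The median TAC minus normal difference of the list was 0.14. The red cell list was 20.33 and 20.43 in TAC-R, 20.83 and 20.77 in TAC, and 19.57 and 19.66 in normal hearts, with 4 of 5 genes called higher in TAC than in normal, 2 called lower in TAC-R than in TAC and 1 called higher in TAC-R than in normal. Of 3 ventricular markers 1 was called, Myh7, a slow myosin heavy chain, lower in TAC than in normal hearts by the test and higher in TAC-R than in TAC. Myh7 was at or next to the highest value of the array on the TAC-R and normal arrays, and Hba-a1 of the red cell list was at it on the TAC arrays, so no size is given for Myh7. The macrophage and pacemaker lists had no call, and Hcn4, the pacemaker channel, was at 9.83 and 8.91 in TAC-R, 9.53 and 9.26 in TAC, and 10.74 and 10.73 in normal hearts. Neuron, Schwann cell and skeletal muscle markers had no call, and none of their measured genes had a row mean above the percentile of the controls. The part of these cells in the channel signals was not tested.

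**Figure D5:**
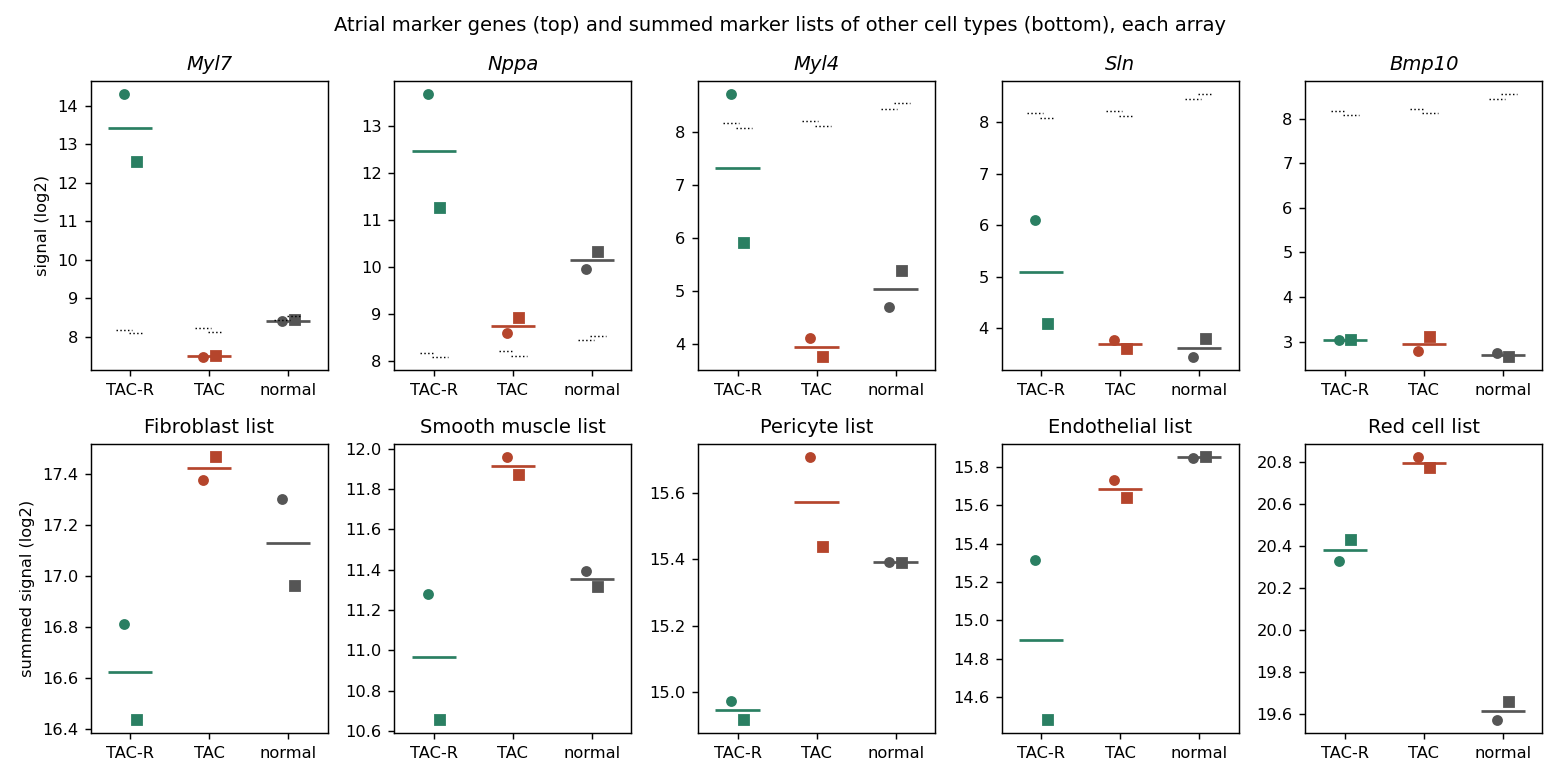
Signals of the 5 atrial markers (top row, log2 units) and summed signals of 5 other marker lists (bottom row, log2 of the summed linear signals) on each array of TAC-R, TAC and normal hearts, with symbols as for the bright genes and each panel on its own scale. Myl7 is at 14.30 and 12.54 in TAC-R. It is at 7.48 and 7.51 in TAC and 8.40 and 8.43 in normal hearts, all below the percentile of the controls. The fibroblast, smooth muscle, pericyte and red cell sums are uppermost in TAC.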

How the data were processed

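Total RNA was hybridised to 6 Clariom S Rat arrays, 2 each from whole TAC-R, TAC and normal hearts, grouped by their labels. The deposited values are log2 signals that the authors made by RMA in Expression Console with a core-exon analysis, per the labels. The settings and version of that software were not given in the sources used here. Of 24834 rows, 1646 control rows were set aside. The other 23188 were tested with limma 3.58.1 in R 4.3.3 (a linear model over the 3 groups, eBayes, Benjamini-Hochberg adjustment, threshold 0.05), which had 3 residual degrees of freedom. An exact permutation test of 2 against 2 arrays cannot go below p = 0.333 and was not used. The number of arrays limits the precision. The platform annotation gave 15049 rows 1 symbol and 8139 rows none. No unit other than log2 was used. Tables and plots were made with Python 3.11.15, pandas 2.3.3 and matplotlib 3.10.9, and the model was tested on simulated data. There it called 5.97% of rows changed by 1 log2 unit, 85.1% of those changed by 2 and 100% of those changed by 3.

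Named genes were every Kcn gene with a row mean above the 95th percentile of the negative controls, every dimmer one called, and the 3 dimmer ones with the largest difference in each comparison. Any measured partner or regulator gene could also be named. The genes and lists were chosen with earlier results of these data known. Alternatives changed the normalization, the pooling of the spread, the rows and arrays in the fit, the row per gene and the brightness threshold.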

Additional observations from a re-analysis of the deposited data

How the results depend on the processing

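With 2 arrays per group, the number of calls depended on the model. Rows called between TAC and normal hearts numbered 59, and 170 with the intensity trend, 207 with a robust trend, 38 with control rows kept, 35 with only the 2 groups fitted and 36 with the replicate block. Between TAC-R and TAC hearts 100 were called, and 344 and 391 with those trends, 41 with control rows kept, 197 without rows below the control percentile, 187 without rows below the median, 37 with 2 groups and 47 with the replicate block. Between TAC-R and normal hearts 21 were called, and 156 and 191 with the trends, 9 with control rows kept, 52 and 68 with those filters, 12 with 2 groups, 11 with the replicate block and 54 after median centring. Leaving out 1 array gave 0 to 35, 4 to 37 and 0 to 12 calls in the 3 comparisons. Of the TAC-R and TAC calls 52 were higher and 48 lower in TAC-R, against 141 and 203 with the intensity trend, 80 and 117 or 79 and 108 with the filters, 26 and 15 with control rows kept, 24 and 13 with 2 groups and 29 and 18 with the block.

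Kcn genes called numbered 0 in each comparison, and with 1 array left out 0 to 0. Between TAC and normal 1 (Kcnj3) was called with either trend or either filter. Between TAC-R and TAC it was 1 with the trend (Kcnip2), 3 with the robust trend (Kcnip2, Kcnip3 and Kcnj2) and 1 without rows below the median (Kcnip3). Between TAC-R and normal it was 3 with the trend (Kcnip2, Kcnj2 and Kcnj3) and 2 with the robust trend (Kcnj2 and Kcnj3). The cause of these differences was not tested. The values show no pairing by replicate number (correlations of same-numbered deviations -0.013, -0.0093 and 0.012). Whether same-numbered arrays were handled together cannot be read from these correlations. The block left 0 Kcn genes called.

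The median difference of the bright genes between TAC and normal was -0.14 above the 99th percentile of the controls, which leaves 1 gene, and -0.047 for the 6 genes above the percentile on all 6 arrays. Between TAC-R and TAC it was 0.73 above the 99th percentile. With 1 array left out the medians ran from -0.017 to 0.42, from 0.0063 to 0.14 and from 0.33 to 0.78.

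Of 825 alternative values for 54 differences of named genes, 19 changed sign and 14 passed the threshold. Kcng2 between TAC and normal was -0.052 after quantile normalization, and Kcnj5 between TAC-R and TAC was 0.022 after median centring and 0.0043 after quantile normalization. With 1 array left out, TAC minus normal ran from -0.25 to 0.34 for Kcng2, -0.14 to 0.74 for Kcnj11, -0.51 to 0.11 for Kcnma1 and -0.33 to 0.027 for Kcnq1. TAC-R minus TAC ran from -0.016 to 0.46 for Kcnab1, -0.40 to 0.33 for Kcne3, -0.024 to 0.36 for Kcnj11, -0.13 to 0.14 for Kcnj12, -0.15 to 0.14 for Kcnj5, -0.043 to 0.35 for Kcnk3 and -0.18 to 0.037 for Kcnq1. Signal over background limits the 76 dimmer genes.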

Other observations

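Of 23 measured partner and regulator genes of potassium channels, 0 were called by limma in any comparison, and 14 had a row mean above the 95th percentile of the negative controls. At an unadjusted p under 0.05 the counts were 2 higher and 2 lower in TAC against normal, 4 higher and 2 lower in TAC-R against TAC, and 4 higher and 4 lower in TAC-R against normal, where 10.3%, 11% and 10.7% of all tested rows had such a p. Atp1b1, a beta subunit of the sodium-potassium pump that returns potassium to the cell, had 12.41 and 12.42 log2 units in TAC-R, 12.67 and 12.59 in TAC, and 13.07 and 12.83 in normal hearts, a TAC-R minus normal difference of -0.54 (adjusted p = 0.429 in limma). Fxyd1, the pump's regulator phospholemman, overlapped between all groups. Amigo1, a membrane partner of voltage-gated channels, had 9.50 and 9.57 in TAC-R, 9.05 and 9.12 in TAC, and 8.62 and 8.48 in normal hearts. The groups did not overlap, normal replicate 2 was below the percentile of its controls, and the TAC-R minus normal difference was 0.98 (adjusted p = 0.182 in limma).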
